A study of Mus musculus with 3 samples.

Results

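Genes for glycosyltransferases and carbohydrate sulfotransferases were examined in whole ovaries of mice lacking the clock gene Bmal1 in SF-1 cells. They were taken by the symbol printed in the array files, among spots that are no controls, where it begins with Galnt, Galntl, B3gnt, B4galt, B3galt, St3gal, St6gal, St8sia, Fut, Chst, Hs3st or Hs6st. The rule found 86 genes, read by 146 probes, among 27975 gene and transcript names on the array. A gene with several probes was read by its brightest one. The family was proposed with results of this same comparison known, so every value of cKO over control below is a description and supports nothing by itself.

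The conditional knockout (cKO) females carried floxed Bmal1 alleles and Cre under control of the sf-1 promoter (genotype label Bmal1fxfxCresf-1 on array 1, with the last number running on to 2 and 3 on arrays 2 and 3). The control females carried the same floxed alleles without Cre (Bmal1fxfx). All were C57Bl/6J, 10 weeks old, fed ad lib in a 12 hour light and dark cycle, and were taken at Zeitgeber time 12, 3.5 days post copulation. On each of 3 two-colour arrays, a pool of 3 cKO animals in cy3 (pools 4, 5 and 7) was hybridised with a pool of 3 control animals in Cy5 (pools 2, 3 and 1). SF-1 is known from steroidogenic cells of the ovary and also from the adrenal cortex, the pituitary gonadotropes and the hypothalamus, so Cre may have acted outside the ovary, and ovarian cells that do not express SF-1 keep the gene. The series asks what BMAL1 does in steroidogenic reproductive tissue.

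Each value is the log2 of the cKO signal over the control signal in a spot, so a value of 1 is a doubling of the signal, and a mean is over the 3 arrays with its SD (n = 3). No dyes were swapped, so an effect of the dye on a probe cannot be told apart from an effect of genotype. Spots well above background made up 67.4% to 69.1% of spots in the cKO channel and 62.9% to 65.8% in the control channel, and the number of arrays limits precision. The targeted gene, Arntl, gave 0.27, 0.13 and -0.24 on arrays 1 to 3; whether its probe reads the floxed region is not known, so this is no check of the labels. Of the cell type markers, 10 of 10 luteal, 12 of 12 granulosa and 18 of 19 oocyte genes were measurable. In whole ovary, fewer cells of a type and less RNA per cell cannot be told apart.

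Glycosyltransferases build sugar chains in the Golgi by moving single sugars from nucleotide donors onto proteins, lipids or a growing chain. The GALNT enzymes place the first N-acetylgalactosamine of mucin-type O-glycans, galactosyl- and N-acetylglucosaminyltransferases lengthen chains, and sialyl- and fucosyltransferases cap them. Sulfotransferases of the CHST, HS3ST and HS6ST families add sulfate to chondroitin, keratan and heparan sulfate or to terminal sugars, which sets how such chains bind proteins. In the ovary, glycans are known from the zona pellucida and from the matrix of the expanding cumulus.

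Galntl5 led the family. It encodes a GALNT-like protein known best from the mouse testis, where it is needed for normal sperm. Its ratio rests on 1 probe of 60 bases, printed here because the finding turns on it, and on no other spot. The RefSeq promoters (GRCm38.p6, 250 bases before to 50 after the start) of Galntl5, at chr5:25181230-25181529 on the plus strand, and of Chst1, the member with the lowest ratio, at chr2:92600867-92601166 on the plus strand, are set beside it. Capitals mark the SF-1 site searched for, AAGGTCA, which reads TGACCTT on the other strand; the E-box CACGTG, bound by BMAL1 with CLOCK, would also be in capitals.
Galntl5 probe: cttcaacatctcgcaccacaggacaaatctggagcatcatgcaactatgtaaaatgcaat
Galntl5 promoter: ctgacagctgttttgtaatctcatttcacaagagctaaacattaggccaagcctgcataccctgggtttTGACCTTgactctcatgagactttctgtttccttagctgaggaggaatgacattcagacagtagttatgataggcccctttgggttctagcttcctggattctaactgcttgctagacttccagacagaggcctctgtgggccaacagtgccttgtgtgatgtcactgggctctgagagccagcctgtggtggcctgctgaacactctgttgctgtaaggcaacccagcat
Chst1 promoter: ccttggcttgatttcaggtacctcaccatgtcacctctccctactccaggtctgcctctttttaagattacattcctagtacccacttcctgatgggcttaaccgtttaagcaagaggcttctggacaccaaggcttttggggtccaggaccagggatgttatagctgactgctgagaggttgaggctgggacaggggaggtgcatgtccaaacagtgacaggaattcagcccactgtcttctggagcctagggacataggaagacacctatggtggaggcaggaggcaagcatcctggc
The Galntl5 promoter held 1 SF-1 site, on the minus strand at bases -181 to -175 from the start, and no E-box. The Chst1 promoter held neither motif. Promoters were matched for 69 of the 86 genes, 85 promoters in all. These are not the same 69 genes as those tested below, as Galnt9 had a promoter but was not tested. The SF-1 site was in 1 of these 85 promoters (1.18%), that of Galntl5, against 4.72% of all 32851 promoters. The E-box was in 8 of the 85 (9.41%), against 7.15% of all promoters: those of B3galt2, B3galt5, B3gnt7, B3gntl1, Chst14, Galnt9, Hs3st3a1 and St6galnac3. A match is a description of the letters and not a bound site, and a window without them says nothing about the factor.

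Of the 86 genes, 69 had a probe that all 3 arrays flagged as well above background, in the cKO or in the control channel, and these were tested together with all other genes passing that filter. Among the 17 others, 12 had no spot well above background on any array: B3gnt3, B3gnt5, B4galt5, Chst13, Chst5, Fut1, Fut9, Hs3st2, Hs3st5, St6galnac1, St8sia2 and St8sia3. The remaining 5 were above background on some arrays only. Chst9, a sulfotransferase for terminal N-acetylgalactosamine, and Galnt9 were above background on 2 of 3 arrays in the cKO channel and on 0 of 3 in the control channel. Galnt13 and St6gal2 reached 2 of 3 arrays in the cKO channel and 1 of 3 in the control channel, and St6galnac5 reached 0 of 3 in the cKO channel and 1 of 3 in the control channel. A ratio near 0 for such genes says only that both spots were dim.

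Over the 69 genes the median log2 ratio was 0.079, against 0.00 over all 17852 genes tested. Limma called 1 member higher in cKO ovaries at an adjusted p under 0.05, against 0.0672% of all genes, and 0 members lower, against 0.106% of all genes. At an unadjusted p under 0.05, 6 members were higher and 4 lower, where 5.9% and 6.43% of all genes were. In all, 18 of the 69 lay above 0 on all 3 arrays and 13 below 0 on all 3, against 17.5% and 17.8% of all genes. A mean of at least 1 in size was reached by 4 members, Galntl5, Galnt12, Galnt5 and Chst1, against 1.39% of all genes, and 57 lay within 0.5 of 0. The family was picked with these ratios in view, so nothing is read from these counts. Of the cell type lists, fibroblast genes had the highest median, 0.54, where 0 of 10 passed in limma, 5 had an unadjusted p under 0.05, and 7 lay above 0 on every array. Luteal genes had a median of -0.17 but a larger median size, 0.70 against 0.54. Of these 10, 3 reached at least 1 in size and 1 passed in limma, being lower. The part of either list in the members' values was not tested.

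**Figure D1:**
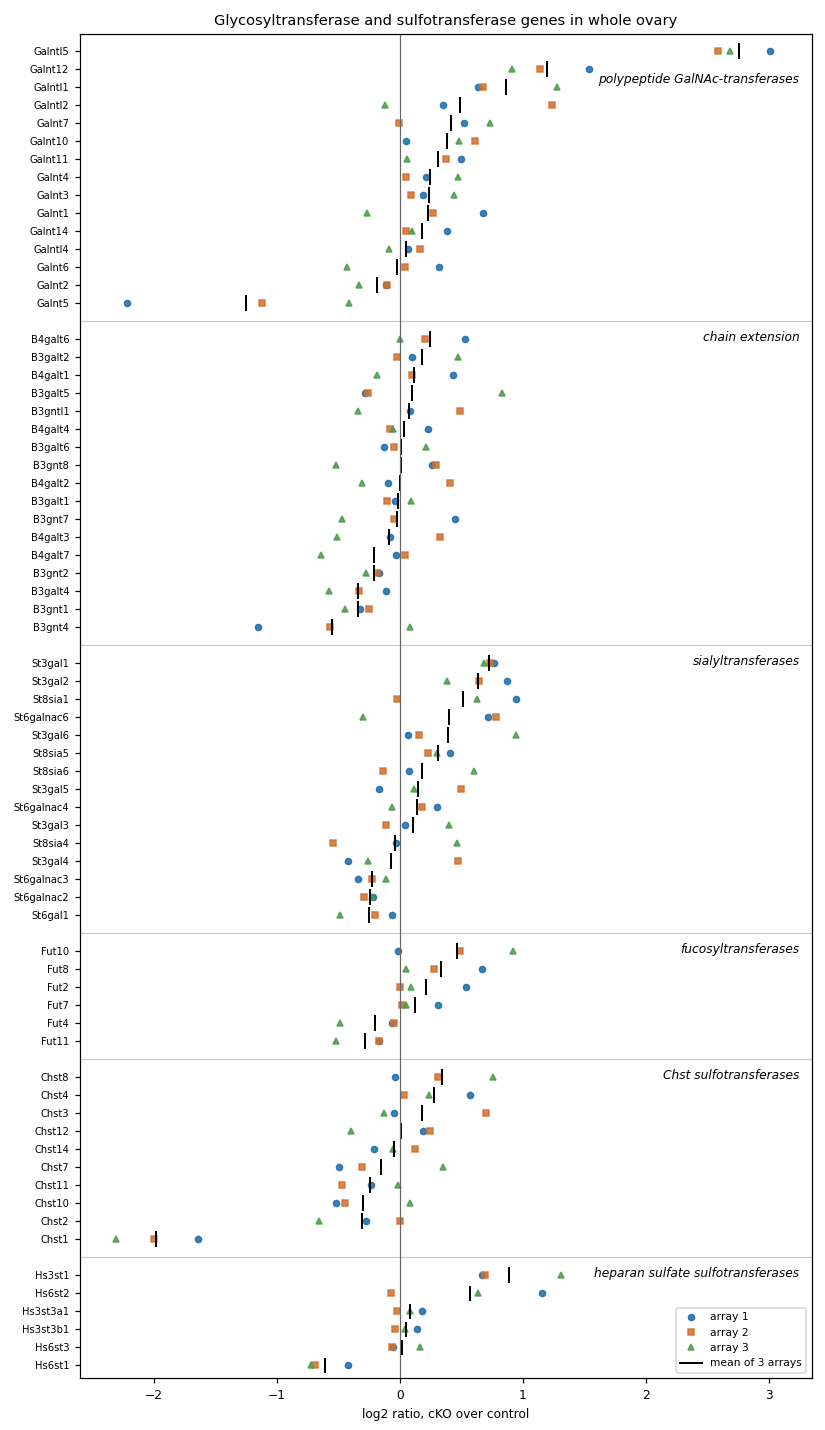
Log2 ratio of cKO over control (x axis) for the 69 tested genes, 1 row each, grouped by role and ordered by mean; blue circles, orange squares and green triangles are arrays 1, 2 and 3 and the black bar is their mean. Galntl5 stands apart on the right at 2.76 and Chst1 on the left at -1.98, while most members lie within 0.5 of 0.

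Polypeptide GalNAc-transferases start mucin-type O-glycans. This group was taken by symbol, so whether the GALNT-like protein of Galntl5 does so was not examined. Of its 17 genes 15 were tested. Their median was 0.25, with 8 above 0 and 2 below 0 on all 3 arrays, where 17.5% and 17.8% of all genes were. Galntl5 rose: its normalised log2 intensity was 10.90, 10.45 and 10.18 in the cKO pools of arrays 1 to 3, against 7.89, 7.86 and 7.49 in the control pools. Every cKO pool was brighter than every control pool, and both channels were well above background on all 3 arrays. The ratios were 3.01, 2.59 and 2.69, a mean of 2.76 ± 0.22, or 6.78-fold higher in cKO ovaries (limma, SE 0.15, adjusted p = 0.0358 over all genes). Without replicate 1, which leaves the pair of arrays on one slide, the mean was 2.64 and without replicate 3 it was 2.80, and neither passed (limma, adjusted p = 0.0624 and adjusted p = 0.0527). Over all alternatives its adjusted p ran from 0.0125 to 0.142. The scanner's own processed signals gave 3.64.

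Galnt12, of the same role group, had log2 intensities of 10.83, 10.22 and 9.99 in the cKO pools, against 9.29, 9.07 and 9.09 in the control pools. The groups did not overlap, and the ratios of 1.54, 1.14 and 0.91 averaged 1.20 ± 0.32, or 2.29-fold, without passing (limma, adjusted p = 0.161). Galntl1, now Galnt16 and named after its value was seen, gave 0.63, 0.68 and 1.28, a mean of 0.86 ± 0.36. Galnt5 lay on the other side, with log2 intensities of 6.43, 6.88 and 6.62 in the cKO pools, against 8.64, 8.0 and 7.03 in the control pools. Its cKO spots were alike on the 3 arrays while the control spots spread over more than 1 log2 unit. Those cKO spots were dim, as the lowest intensities called well above background in that channel were 6.07, 6.12 and 6.15. Likeness of spots so dim says little, and the mean ratio depended on the processing. It was -1.58 with a normexp offset of 16 and -2.17 with scanner signals. The ratios of -2.22, -1.12 and -0.42 averaged -1.25 ± 0.91 and did not pass (limma, adjusted p = 0.322), and without replicate 1 the mean was -0.77. Markers of the ovarian surface epithelium also differed between the arrays, with medians of 1.10, -0.25 and -0.63 over 8 of 8 genes. They were highest on array 1, where Galnt5 was lowest. Oviduct epithelium genes had medians of 1.03, -0.50 and 0.06 over 6 of 7 genes. The part of either list in the Galnt5 values was not tested. Galnt2, a widely expressed member, was close to 0 at -0.18 ± 0.13, and Galntl2, now Galnt15, ranged widely at 0.35, 1.23 and -0.12; fibroblast genes had medians of 0.57, 0.98 and 0.15 and smooth muscle genes 0.20, 0.89 and -0.98, and their part in it was not tested. The other members ran from -0.02 (Galnt6, at 0.24 with scanner signals) to 0.42 (Galnt7), Galnt11, the neighbour of Galntl5 on its chromosome, being at 0.31 ± 0.23.

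**Figure D2:**
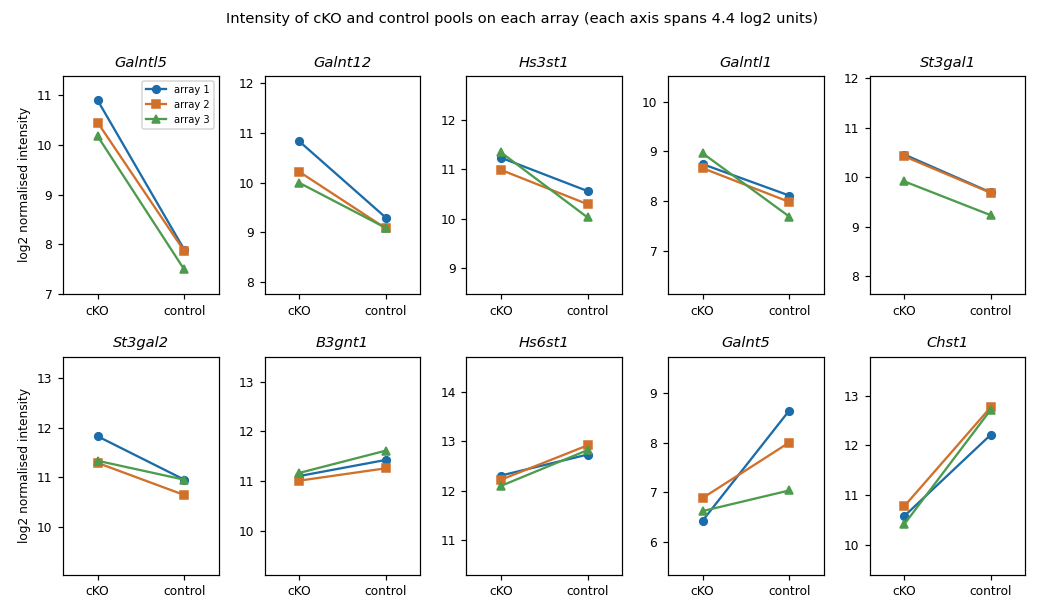
Normalised log2 intensity (y axis, each spanning the same range of log2 units) in the cKO and the control pool of each array, joined by a line per array, for the 10 members with an unadjusted p under 0.05, ordered by ratio. Galntl5 drops most steeply from the cKO side to the control side, 10.18 to 10.90 against 7.49 to 7.89, and Chst1 climbs most steeply; intensities of different probes are not comparable.

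The chain-extending group of galactosyl- and N-acetylglucosaminyltransferases had the smallest median size of ratio among the 6 role groups, 0.097. Of 20 genes 17 were tested, with a median of 0.003 (0.13 after median centring) and a range of -0.55 to 0.25. In limma 0 passed, and 1 was lower at an unadjusted p under 0.05, where 6.43% of all genes were. That gene was B3gnt1, now B4gat1, a glucuronyltransferase that primes the laminin-binding glycan of dystroglycan. It gave -0.32, -0.25 and -0.45, a mean of -0.34 ± 0.10 (limma, adjusted p = 0.391). B3gnt4, which adds N-acetylglucosamine to lactosamine chains, was lowest at -0.55 ± 0.62, but its ratios of -1.15, -0.57 and 0.08 crossed 0. At the other end were B4galt6, a lactosylceramide synthase (0.25 ± 0.27), and the galactosyltransferase B3galt2 (0.18 ± 0.26). B3galt5, the enzyme of type 1 chains, was at -0.29, -0.26 and 0.83, so that array 3 alone put its mean at 0.10; without replicate 3 it was -0.27. B3gnt2, the main polylactosamine enzyme, gave -0.21 ± 0.06 by its brighter probe and 0.24 by a dimmer one. B4galt1, the broadly used N-glycan galactosyltransferase, was at 0.11 ± 0.31, and at -0.046 without replicate 1.

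Sialyltransferases, which cap chains with sialic acid, were tested for 15 of 20 genes. Their median was 0.15, and 0 passed. At an unadjusted p under 0.05 there were 2, both higher, where 5.9% of all genes were higher and 6.43% lower. St3gal1, which sialylates the core of O-glycans, had log2 intensities of 10.46, 10.42 and 9.92 in the cKO pools and 9.69, 9.68 and 9.23 in the control pools. Each cKO pool exceeded its partner by nearly the same amount, 0.76, 0.74 and 0.68, a mean of 0.73 ± 0.04 or 1.66-fold (limma, adjusted p = 0.199). St3gal2, which acts on O-glycans and gangliosides, gave 0.87, 0.65 and 0.38, a mean of 0.63 ± 0.25 (limma, adjusted p = 0.278), while its second probe gave 0.06. The ganglioside enzyme St8sia1 was at 0.51 ± 0.49, with a second probe at -0.02. St6galnac6 was at 0.72, 0.78 and -0.30, a mean of 0.40, and its other kept probes had means of 0.19 and 0.009. The macrophage list had medians of 0.72, 0.89 and -0.71 over 13 of 13 genes and the smooth muscle list 0.20, 0.89 and -0.98 over 10 of 10 genes. The endothelium list had 0.06, 0.08 and -0.29 over 14 of 14 genes. All were above and below 0 on the same arrays as St6galnac6, and their part in it was not tested. Over 3 arrays such likeness says little, here and for Galnt5 and Galntl2. At the low end, St6gal1, which caps N-glycans, was at -0.25 ± 0.22. St6galnac2 was at -0.24 ± 0.04, although the scanner's own signals put it at 0.07. Its other kept probes gave -0.07 and 0.06, so its probes differ in sign.

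Fucosyltransferases were tested for 6 of 8 genes and lay between -0.29 and 0.46, with a median of 0.17. In limma 0 passed and 0 were at an unadjusted p under 0.05, where 5.9% of all genes were higher and 6.43% lower. Fut8, which adds the core fucose of N-glycans, was at 0.67, 0.28 and 0.05, a mean of 0.33 ± 0.31, and its dimmer probe gave 0.80. Fut10 had a mean of 0.46 ± 0.47 and a second probe at -0.09, so the probes differ in sign. Fut11 (-0.29 ± 0.20) and Fut4, which makes Lewis x structures (-0.20 ± 0.25), were lowest. Fut2, the secretor enzyme, had log2 intensities of 6.80, 6.25 and 6.31 in the cKO pools, against 6.26, 6.24 and 6.22 in the control pools by its brighter probe. That probe was not well above background in the control channel, the groups overlapped, and the mean was 0.21 ± 0.29 (limma, adjusted p = 0.672). The other Fut2 probe, above background in both channels, gave -0.094, -0.090 and -0.053.

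Among the Chst sulfotransferases, 10 of 13 were tested, with a median of -0.10 that turned to 0.12 after median centring, which moved the median of all genes by 0.12. Chst1, which sulfates galactose in keratan sulfate, had log2 intensities of 10.57, 10.77 and 10.41 in the cKO pools, against 12.22, 12.77 and 12.72 in the control pools. The groups were far apart on every array, and the ratios were -1.64, -1.999 and -2.31. The mean of -1.98 ± 0.33, or 3.95-fold lower in cKO ovaries, lay just outside the threshold (limma, SE 0.17, adjusted p = 0.0568). It passed with the scanner's own signals (-2.31, limma, adjusted p = 0.0311), with a normexp offset of 16 (adjusted p = 0.0295), with the slide as a block (adjusted p = 0.0452) and when only probes above background in both channels were tested (adjusted p = 0.0393). Its adjusted p over all alternatives ran from 0.0295 to 0.204. The other 9 ran from -0.31 (Chst2, a sulfotransferase of selectin ligands) to 0.35. That highest value was of Chst8, which sulfates the sugars of luteinizing hormone in the pituitary: its log2 intensities of 12.61, 13.19 and 13.84 in the cKO pools overlapped the 12.64, 12.88 and 13.08 of the control pools. Chst4, another enzyme of selectin ligands, was at 0.28 ± 0.27.

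Of the heparan sulfate sulfotransferases 6 of 8 were tested, with a median of 0.06, and 0 passed. Hs3st1, which makes the antithrombin-binding sequence of heparan sulfate, had log2 intensities of 11.23, 10.99 and 11.34 in the cKO pools and 10.56, 10.30 and 10.03 in the control pools. The groups did not overlap; the ratios of 0.67, 0.69 and 1.31 averaged 0.89 ± 0.36, or 1.85-fold (limma, adjusted p = 0.249). Hs6st1, a glucosamine sulfotransferase of the same chains, was lower on every array, at -0.42, -0.69 and -0.72, a mean of -0.61 ± 0.16 (limma, adjusted p = 0.259). Its log2 intensities of 12.10 to 12.31 in the cKO pools lay below the 12.73 to 12.92 of the control pools. Its paralog Hs6st2 varied, at 1.16, -0.07 and 0.63. Hs6st3, read by a dim probe, was at 0.02 ± 0.13, and at 0.20 with scanner signals. Hs3st3a1 and Hs3st3b1, close paralogs whose signals could cross-hybridise, were at 0.079 and 0.050, and at -0.10 and -0.25 with scanner signals.

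Among the 69 members, Pearson's r between the arrays' ratios was 0.788 for arrays 1 and 2, 0.627 for arrays 1 and 3 and 0.622 for arrays 2 and 3. Without the 4 members of at least 1 in size it was 0.497, 0.318 and 0.210. The points share the arrays and their normalisation, and are no independent replicates. Of the 30 members with more than 1 probe above background, 11 had probes of opposite sign, and the median spread between the probes of a gene was 0.22. Chst1, Galnt12, Galnt5, Galntl1, St3gal1, Hs3st1 and Hs6st1 had 1 probe each, as Galntl5 did, so no second probe could be compared for them.

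Genes that work before, beside or after the family were set in 7 lists of 187 genes, of which 161 were tested. Limma passed 0 of them in either direction; at an unadjusted p under 0.05, 14 were higher and 12 lower, where 5.9% and 6.43% of all genes were. The list medians ran from -0.10 to 0.12, and the negative ones, of N-glycan assembly and glycan breakdown, turned positive after median centring. In the lists of O-glycan cores and of N-glycan assembly, Oga, which removes the nuclear and cytosolic O-linked sugar, was highest of the first at 0.50 ± 0.25 and Mfng, a Notch-modifying transferase, lowest at -0.33 ± 0.56. The Golgi mannosidase Man1a gave 1.68, 0.86 and 1.41, a mean of 1.32 ± 0.42 (limma, adjusted p = 0.171), and the mannosyltransferase Alg2 gave -0.45, -1.21 and -1.89. Of the genes that build or modify glycosaminoglycan backbones, the heparan sulfate epimerase Glce was highest at 0.87 ± 0.23 (limma, adjusted p = 0.203) and Extl2 lowest at -0.67 ± 0.32. Glycolipid enzymes ran from Ggta1 (-0.47 ± 0.35), which makes the alpha-galactose epitope, to B3galnt2 (0.54 ± 0.14), and only 6 of the 16 were measurable.

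Supply genes included the transporters Slc35b1 (0.66 ± 0.20) and Slc35a1, which brings the sialic acid donor into the Golgi (-0.63 ± 0.23), as their highest and lowest. The core protein list ran from the proteoglycan decorin, Dcn (0.58 ± 0.82), to the endothelial sialomucin Emcn (-0.43 ± 0.27). In the glycan breakdown list, Man2b1, a lysosomal mannosidase, was highest (0.60 ± 0.68).

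**Figure D3:**
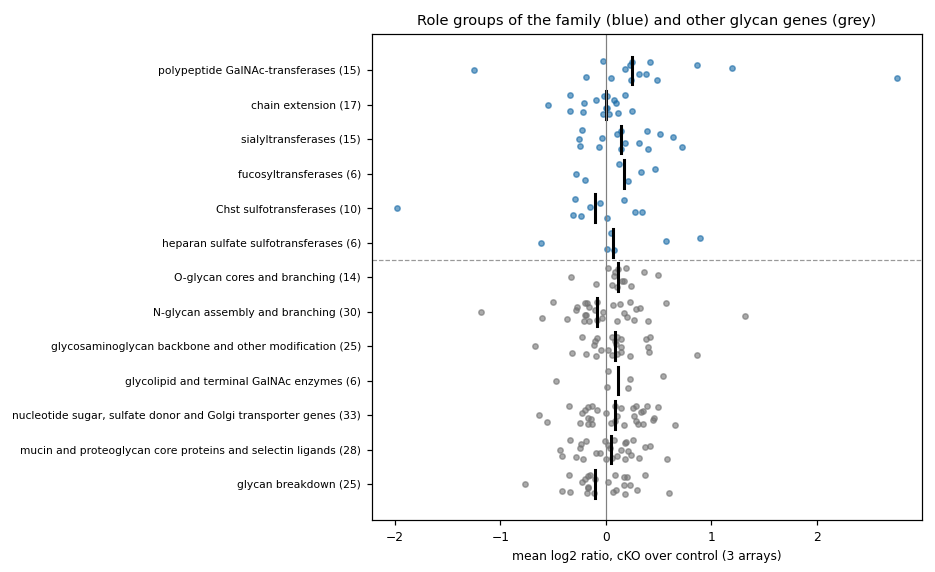
Mean log2 ratio of cKO over control over 3 arrays (x axis) for every tested gene of the 6 role groups (blue points) and the 7 lists of other glycan genes (grey points), with the number of genes in brackets and the group's median as a black bar. The medians lie between -0.10 and 0.25, and the points farthest from 0 are Galntl5 at 2.76 and Chst1 at -1.98.

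**Figure D4:**
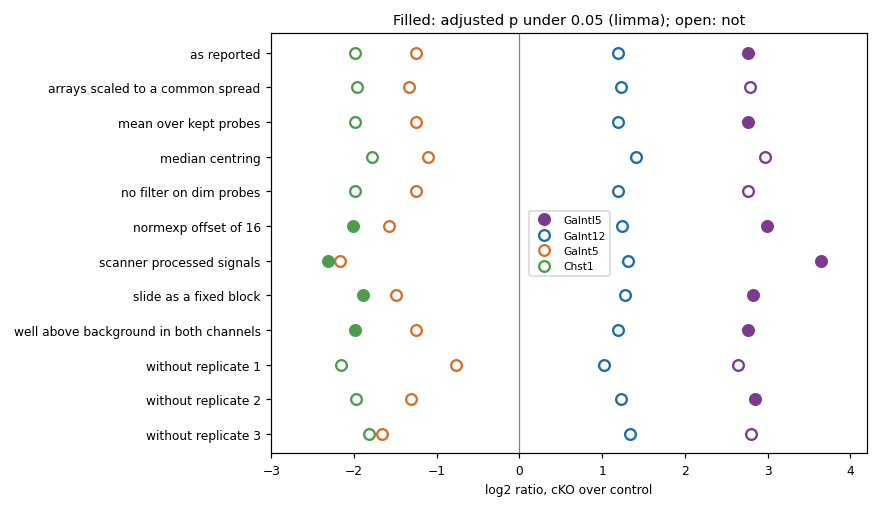
Log2 ratio of cKO over control (x axis) of the 4 members of at least 1 in size under the reported setting and each alternative (rows); filled points have a limma adjusted p under 0.05. Galntl5 stays between 2.64 and 3.64 and Chst1 between -2.31 and -1.79, while Galnt5 moves between -2.17 and -0.77.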

How the data were processed

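RNA of whole ovaries was measured on 3 two-colour Agilent arrays, each 1 replicate numbered by its title; arrays 2 and 3 share a slide. The deposited spot and background intensity values were extracted with Agilent software, version 9.1.3.1 per the file headers. Log10 values deposited beside them divide the red (control) by the green (cKO) processed signal, detrended and dye-normalised by that software, per the file headers; the value table repeats them (largest difference 0). Flags for background, saturation and outliers, other values in these deposited files, are 0 or 1. What else the authors did is not given in the sources used here.

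Mean spot signals were corrected by normexp (offset 50) and loess-normalised in limma 3.58.1 under R 4.3.3, and outlier spots were left out. A probe was kept where all 3 arrays flagged the same channel as well above background, and the brightest such probe stood for its gene. Log2 ratios were tested against 0 with lmFit and eBayes, two-sided, with p-values adjusted after Benjamini-Hochberg over 17852 genes and called under 0.05. Channel intensities were also quantile-scaled on their average. The same limma steps were run on simulated data, with independent normal noise of the spread that limma fits per gene after shrinking. They recovered 99 of 100 genes changed by 2 on the log2 scale. Another 100 genes were changed by 3 in the same run. More genes were thus changed than passed in the real data, which eases the adjusted threshold, so the run does not measure power here. The normexp offset pulls ratios of dim probes toward 0, and loess assumes that most genes do not differ.

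Probe symbols were updated through RefSeq genes of GRCm38.p6: 122 of the 146 probes matched by accession, and 4 genes have a newer symbol. Members, lists and tests were chosen with earlier results of these data known. The text names members past the threshold, the 2 highest and 2 lowest of each role, the 6 with the largest range between arrays, the 5 with probes farthest apart, and the extremes of each list; other names were chosen after their values were seen. Nothing says how pools relate beyond their numbers, so p-values measure the spread between 3 pairs of pools, not between animals. Protein sequences were not used here. The lowest gene of the glycan breakdown list is not reported here.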

Additional observations from a re-analysis of the deposited data

How the results depend on the processing

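Direction was kept by Galntl5, Galnt12, Galnt5 and Chst1 under every alternative run. Galntl5 did not pass when arrays were scaled to equal spread (2.79, limma, adjusted p = 0.0840), after median centring (2.97, adjusted p = 0.0569) or without a filter on dim probes (2.76, adjusted p = 0.142), so that 0 members passed there. Over all 17852, 17852 and 27964 genes tested, 0, 1 and 0 passed (2301, 2736 and 3181 at an unadjusted p under 0.05). Leaving out a replicate gave 0 to 1 members higher and 0 lower. Chst1 joined as 1 member lower with a normexp offset of 16 (-2.01), scanner signals (-2.31), the slide as a block (-1.90) and both channels above background (-1.98). Counts over all genes, 12 higher and 19 lower as reported, were 28 and 27, 27 and 26, 26 and 22, and 18 and 23 under those alternatives; they were 11 and 9 without replicate 2, 0 and 1 without replicate 1 and 0 and 0 without replicate 3. The slide as a fixed block was added after seeing the data, because the random block could not be fitted to 3 arrays.

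The members' median of 0.079 was 0.23 after median centring, which moved the median of all genes by 0.12. Without the filter the members' median was 0.033, over 86 members rather than 69. Medians without the filter, here and below, include genes not tested otherwise. The members' median was 0.097 with an offset of 16, 0.11 with scanner signals and 0.051 to 0.13 without 1 replicate. Median centring gave 0.45 for GalNAc-transferases, 0.27 for sialyltransferases, 0.13 for chain extension, 0.14 for heparan sulfate sulfotransferases, 0.12 for Chst genes (0.038 with scanner signals), 0.31 for O-glycan cores, 0.090 for N-glycan assembly, 0.19 for glycosaminoglycan backbones, 0.23 for glycolipid enzymes, 0.29 for supply genes, 0.19 for core proteins and 0.11 for glycan breakdown. The fucosyltransferase median was 0.10 over all kept probes, 0.071 without the filter, 0.26 with an offset of 16, 0.28 with scanner signals, 0.024 with both channels above background and 0.041 to 0.25 without 1 replicate. The glycolipid median was 0.17 over all kept probes, 0.00195 without the filter, 0.20 with scanner signals, 0.017 with both channels above background and 0.059 to 0.19 without 1 replicate. Scanner signals gave 0.014 for N-glycan assembly and -0.021 for glycan breakdown. Without 1 replicate the range was -0.10 to 0.00069 for N-glycan assembly, -0.017 to 0.17 for supply genes, -0.089 to 0.12 for glycan breakdown, -0.043 to 0.037 for core proteins, 0.042 to 0.25 for O-glycan cores, 0.019 to 0.086 for glycosaminoglycan backbones, -0.13 to 0.04 for chain extension, 0.11 to 0.23 for sialyltransferases, 0.26 to 0.27 for GalNAc-transferases, -0.11 to -0.03 for Chst genes and 0.04 to 0.11 for heparan sulfate sulfotransferases. The cause of these shifts was not tested. Of the 69 tested members, 28 changed sign under at least 1 alternative, 14 of them with scanner signals; their reported ratios were at most 0.24 in size. Mfng, at -0.33, was at 0.082 with scanner signals. Each ratio already pairs a cKO pool with a control pool on its array, so no further replicate block was possible. Dim probes limit what can be said of the 17 members not tested. They also limit tested members whose intensities lay near the lowest called well above background, such as B3galt1, Galnt3, Hs3st3a1 and Hs6st3. Means as reported and with scanner signals were 0.24 and 0.58 for Galnt3, and 0.02 and 0.20 for Hs6st3. For B3galt1 they were -0.01 and -0.30, and for Hs3st3a1 0.079 and -0.10.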

Other observations

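Genes beside the 4 members of at least 1 in size on their chromosomes, by RefSeq order (GRCm38.p6), gave other values. Next to Galntl5 (2.76), the kinase subunit Prkag2 was at -0.23 ± 0.13 and Galnt11 at 0.31 ± 0.23; Rheb, a small GTPase, and Kmt2c, a histone methyltransferase, were at 0.42 ± 0.25 and 0.25 ± 0.17, and none of them passed (limma, adjusted p 0.389 to 0.555). Beside Chst1 (-1.98), the GDP-fucose transporter Slc35c1, itself a glycan gene, gave 0.36, 0.55 and 0.56. The clock repressor Cry2, the next gene after Slc35c1, gave 1.65, 1.93 and 0.68, a mean of 1.42 ± 0.65 (limma, adjusted p = 0.236), of opposite sign to Chst1 on all 3 arrays. On the other side of Chst1, Syt13 and Prdm11 were at -0.18 ± 0.41 and -0.23 ± 0.40. Beside Galnt12 (1.20), Anks6 and the collagen gene Col15a1 were at 0.05 ± 0.19 and 0.09 ± 0.11. The next genes out, Gabbr2 and Tgfbr1, were at -0.43 ± 0.85 and -0.22 ± 0.20. Beside Galnt5 (-1.25), the mitochondrial glycerol phosphate dehydrogenase Gpd2 was at 0.65 ± 0.40. On its other side Cytip was at -0.04 ± 0.14, and the neighbours Ermn and Gm52512 were not tested.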
